A study of Mus musculus with 24 samples.

Results

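The polycomb repressive complex PRC2 was followed at the level of its mRNAs through 10 mouse genes: *Ezh1* and *Ezh2*, *Suz12*, *Eed*, *Rbbp4* and *Rbbp7*, *Jarid2*, *Aebp2*, *Phf1* and *Mtf2*. They were chosen by name, as the subunits of the complex, and found on the array through the RefSeq accession of each probe. This gave 17 of the 55681 probes, or 10 of the 20145 genes with a symbol. All 10 genes were well above background on all 24 arrays by their brightest probe, which stands for the gene below unless another probe is named. Signals are log2 values after quantile normalization, so a difference of 1 is a doubling, and signals of different probes are not compared as levels.

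PRC2 methylates histone H3 at the lysine that carries the repressive H3K27me3 mark, and so holds developmental genes silent in cells that do not need them. *Ezh1* and *Ezh2* encode alternative catalytic subunits, *Ezh2* being typical of dividing cells and *Ezh1* of resting ones. *Suz12* and *Eed* encode the core subunits without which the enzyme is inactive, and *Rbbp4* (RbAp48) and *Rbbp7* (RbAp46) the histone-binding subunits. *Jarid2* and *Aebp2* belong to one form of the complex and the Polycomb-like genes *Phf1* and *Mtf2* to another.

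The cells were HC11, a mammary epithelial line that came, through Comma-D cells, from a pregnant Balb/c mouse and that makes milk proteins when given the lactogenic hormones (LH) hydrocortisone, insulin and prolactin. *mPINC* is a long non-coding RNA of the mammary gland. The 15 siRNA arrays hold siNEG (a control siRNA), siPINC1.0/1.6 (siRNAs to the splice forms *mPINC1.0* and *mPINC1.6*) and siPINC (siRNAs to all *mPINC* splice forms), each at 10 nM. They are without hormones (−LH, n = 2 cultures a group, harvested 5 days after transfection) and with them (+LH, n = 3). By the study, siPINC also targets *DCR2*, a splice form without a conserved region, and siPINC1.0/1.6 does not. Both sets share a siRNA, so they are not independent reagents. The 9 lentivirus arrays, all +LH with n = 3, hold LeGO-GFP (vector control), LeGO-1.0/1.6 (overexpression of both splice forms) and LeGO-DCR (a mutant without the conserved terminal regions). Infected cells were pools, and no −LH lentivirus array is analysed here. By the methods, infected cells were expanded, divided and frozen before the experiments. Whether the cultures of a vector came from separate infections is not stated. If they did not, the p-values measure the spread between cultures of a stock. An effect of the vector could then not be told apart from a difference between infected stocks. The time in hormones and the medium of the −LH cells are not given for these arrays in the sources used here. By the methods, insulin is in the growth medium too, and cells pass to a medium with other serum and no EGF before prolactin and hydrocortisone are added. Whether serum, EGF and time in culture also differed between −LH and +LH arrays is thus not known. They cannot be told apart from hormones, and "with hormones" below names the whole +LH against −LH contrast.

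Between 24020 and 30750 probes were well above background on 23 of the 24 arrays. LeGO-1.0/1.6 replicate 1 stood apart with 35790, and with 644 outlier spots against at most 280 elsewhere, and values without it are given with the overexpression results. The epithelial markers *Krt5*, *Krt8*, *Krt14*, *Krt18*, *Epcam* and *Cdh1* were well above background on every array. Of the other markers, 5 to 6 of 6 fibroblast, 1 to 3 of 3 immune, 1 to 3 of 3 endothelial and 0 to 1 of 3 adipocyte genes were. The arrays lay on 3 slides. Slide 1 held all −LH arrays with siNEG +LH replicate 1 and LeGO-GFP replicate 1, slide 2 the other +LH siRNA arrays and slide 3 the other lentivirus arrays. The *mPINC* probe fell by 1.11 on the log2 scale with siPINC1.0/1.6 in −LH cells (adjusted p = 0.0366 from limma) and by 1.17 with siPINC (adjusted p = 0.147), and the former call was lost without any 1 of the 6 −LH arrays. In +LH siRNA cells it was near background, being well above it on 2 of 3, 2 of 3 and 1 of 3 arrays of siNEG, siPINC1.0/1.6 and siPINC, so the knockdown could not be checked there. LeGO-1.0/1.6 raised it by 7.37 (adjusted p = 1.04e-07 from limma), and it does not report the LeGO-DCR transcript.

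The strongest movement of the complex was with hormones, that is, between −LH and +LH cells. In siNEG cells, *Ezh2* mRNA fell and *Ezh1* mRNA rose by nearly the same amount, *Jarid2* and *Phf1* rose, and *Suz12*, *Eed*, *Rbbp7*, *Aebp2* and *Mtf2* fell. By limma, 9 of the 10 genes passed an adjusted p of 0.05, 3 higher and 6 lower in +LH cells. Among the 11284 genes well above background on every array of the fit, 64.2% passed, 34% higher and 30.2% lower. Most genes of this brightness thus changed. The 9 of 10 PRC2 genes called, and the 6 of 10 called lower, were above these shares, and the 3 of 10 called higher were not. With only 10 genes, the excess was not tested. The median difference over the 10 genes was −0.37, beside 0.02 over all genes. RNA of whole cultures was measured, so fewer cells of a kind and less RNA per cell cannot be told apart. Of 6 fibroblast markers, 4 rose and 2 fell with hormones (mean log2 signal of the 6 between 6.89 and 6.91 in siNEG −LH and between 7.88 and 7.95 in siNEG +LH cells), 3 of the 6 epithelial markers rose and 2 fell (means between 13.90 and 13.93 and between 13.68 and 13.81), no immune, endothelial or adipocyte marker passed, and their part in the PRC2 differences was not tested.

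*Ezh2*, the catalytic subunit of dividing cells, read 11.41 and 11.38 in siNEG −LH cells and 10.49, 10.52 and 10.43 in siNEG +LH cells. *Ezh1*, its alternative, read 11.99 and 11.89 without hormones and 12.86, 12.81 and 12.92 with them. For both genes every +LH array lay outside the range of the −LH arrays, on opposite sides. The share of all genes whose groups were separated is not given here, so such separation, here and below, is description only. *Ezh2* was 1.89-fold lower (log2 difference −0.92, standard error 0.058, adjusted p = 5.73e-07 from limma) and *Ezh1* 1.90-fold higher (0.92, standard error 0.059, adjusted p = 5.82e-07). The remaining *Ezh1* probes rose by 0.92 and 0.99, and all 3 *Ezh1* probes were called. Within an array, the log2 ratio of *Ezh2* to *Ezh1*, set to 0 for the siNEG −LH mean, was −1.82, −1.75 and −1.95 on the siNEG +LH arrays.

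The promoters of 4 of these genes are shown, chosen after the matches were known: *Ezh2* and *Suz12*, which fell with hormones and hold a match to an E2F site, and *Ezh1* and *Jarid2*, which rose and hold none. *Eed*, *Rbbp7*, *Aebp2* and *Mtf2* also fell, and *Phf1* also rose, without a match, so most of the genes that fell held none. Each window runs from 250 bases before to 30 after a RefSeq start (GRCm38.p6), is read along the gene, and has the E2F matches in capitals. The *Ezh2* start used lies inside the gene as annotated, whose outer end is at base 47595270. E2F factors are regulators of genes for DNA replication.
Ezh2 promoter (chr6:47595001-47595280, - strand): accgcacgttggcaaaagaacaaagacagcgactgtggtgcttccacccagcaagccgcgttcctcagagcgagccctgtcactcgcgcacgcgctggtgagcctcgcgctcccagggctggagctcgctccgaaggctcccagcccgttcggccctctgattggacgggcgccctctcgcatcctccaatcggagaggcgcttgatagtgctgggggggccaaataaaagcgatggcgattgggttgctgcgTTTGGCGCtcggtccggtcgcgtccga
Suz12 promoter (chr11:79992856-79993135, + strand): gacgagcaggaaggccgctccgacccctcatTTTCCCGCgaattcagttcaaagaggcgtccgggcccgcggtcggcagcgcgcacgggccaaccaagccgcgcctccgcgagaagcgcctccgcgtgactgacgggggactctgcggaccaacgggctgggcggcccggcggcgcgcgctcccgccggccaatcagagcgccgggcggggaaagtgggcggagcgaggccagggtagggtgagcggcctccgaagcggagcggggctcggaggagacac
Ezh1 promoter (chr11:101226434-101226713, - strand): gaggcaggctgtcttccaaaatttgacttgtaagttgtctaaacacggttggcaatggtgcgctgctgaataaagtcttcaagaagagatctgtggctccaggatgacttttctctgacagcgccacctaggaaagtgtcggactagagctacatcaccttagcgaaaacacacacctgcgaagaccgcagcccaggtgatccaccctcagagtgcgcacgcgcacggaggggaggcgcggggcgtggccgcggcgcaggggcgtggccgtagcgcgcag
Jarid2 promoter (chr13:44730524-44730803, + strand): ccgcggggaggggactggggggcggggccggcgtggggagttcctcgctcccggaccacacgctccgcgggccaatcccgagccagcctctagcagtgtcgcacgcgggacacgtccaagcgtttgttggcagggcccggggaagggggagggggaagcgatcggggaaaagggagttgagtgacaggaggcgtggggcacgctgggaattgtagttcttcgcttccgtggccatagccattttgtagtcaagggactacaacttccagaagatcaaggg
The letters searched for on both strands were TTTCCCGC, TTTGGCGC, TTTGCCGC and TTTCGCGC, over 300 bases that end 50 bases after the start. *Ezh2* held TTTGGCGC beginning at base 4 after the start used, and *Suz12* held TTTCCCGC beginning at −219. No window of the other 8 genes held a match. Of 32851 promoters, 2.26% held one. With the first T left out of each site, 4 of the 10 genes matched (*Ezh2*, *Suz12*, *Rbbp4* and *Aebp2*), against 9.57% of promoters. The STAT-type letters TTCNNNGAA were in 0 of the 10 genes and 8.3% of promoters, and the glucocorticoid half-site letters AGAACA in 3 genes (*Ezh2*, *Eed*, *Mtf2*) and 19.0% of promoters. The CHR letters TTTGAA were in 4 genes (*Suz12*, *Eed*, *Aebp2* and *Mtf2*) and 17.9% of promoters, and CCAAT was in 8 genes, all but *Ezh1* and *Phf1*, and 37.4% of promoters. *Aebp2*, *Jarid2* and *Mtf2* have more than 1 window and could match in any. CpG content was not matched between these windows and the rest, and a match is a description of letters and not a binding site.

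Among the core subunits, *Suz12* read 10.62 and 10.54 in siNEG −LH and 10.06, 10.30 and 10.13 in siNEG +LH cells. *Eed* went from 12.30 and 12.17 to 11.81, 11.88 and 11.79, and *Rbbp7* from 13.57 and 13.58 to 13.02, 13.20 and 13.17. The falls were close in size: −0.42 for *Suz12* (adjusted p = 0.00847 from limma), −0.41 for *Eed* (adjusted p = 0.00199) and −0.45 for *Rbbp7* (adjusted p = 0.000299). The second *Rbbp7* probe fell by 0.35. *Rbbp4*, which encodes the paralogue of RbAp46, read 13.86 and 13.91 against 13.73, 13.69 and 13.73, a difference of −0.16 that did not pass (adjusted p = 0.121, 95% interval −0.32 to −0.01), and its second, much dimmer probe read higher with hormones.

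The accessory genes went separate ways. *Jarid2*, which helps to bring PRC2 to its targets, read 8.43 and 8.13 in siNEG −LH and 9.50, 9.37 and 9.18 in siNEG +LH cells, 2.10-fold higher (1.07, standard error 0.119, adjusted p = 4.59e-05 from limma). *Phf1* read 8.30 and 8.21 against 9.11, 9.22 and 9.04, 1.83-fold higher (0.87, standard error 0.069, adjusted p = 3.13e-06). Its paralogue *Mtf2* moved the other way, from 10.71 and 10.59 to 10.30, 10.36 and 10.32 (−0.32, adjusted p = 0.00416). *Aebp2*, a zinc finger partner of *Jarid2* in the complex, fell from 10.69 and 10.52 to 10.00, 10.03 and 9.99 (−0.60, adjusted p = 0.000189), and a probe to another *Aebp2* transcript fell by 0.88. So in each of these pairs, *Jarid2* with *Aebp2* and *Phf1* with *Mtf2*, 1 gene rose and 1 fell. The pairs are not all genes of their forms: *Phf19*, another Polycomb-like gene given with the lists below, fell.

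**Figure D1:**
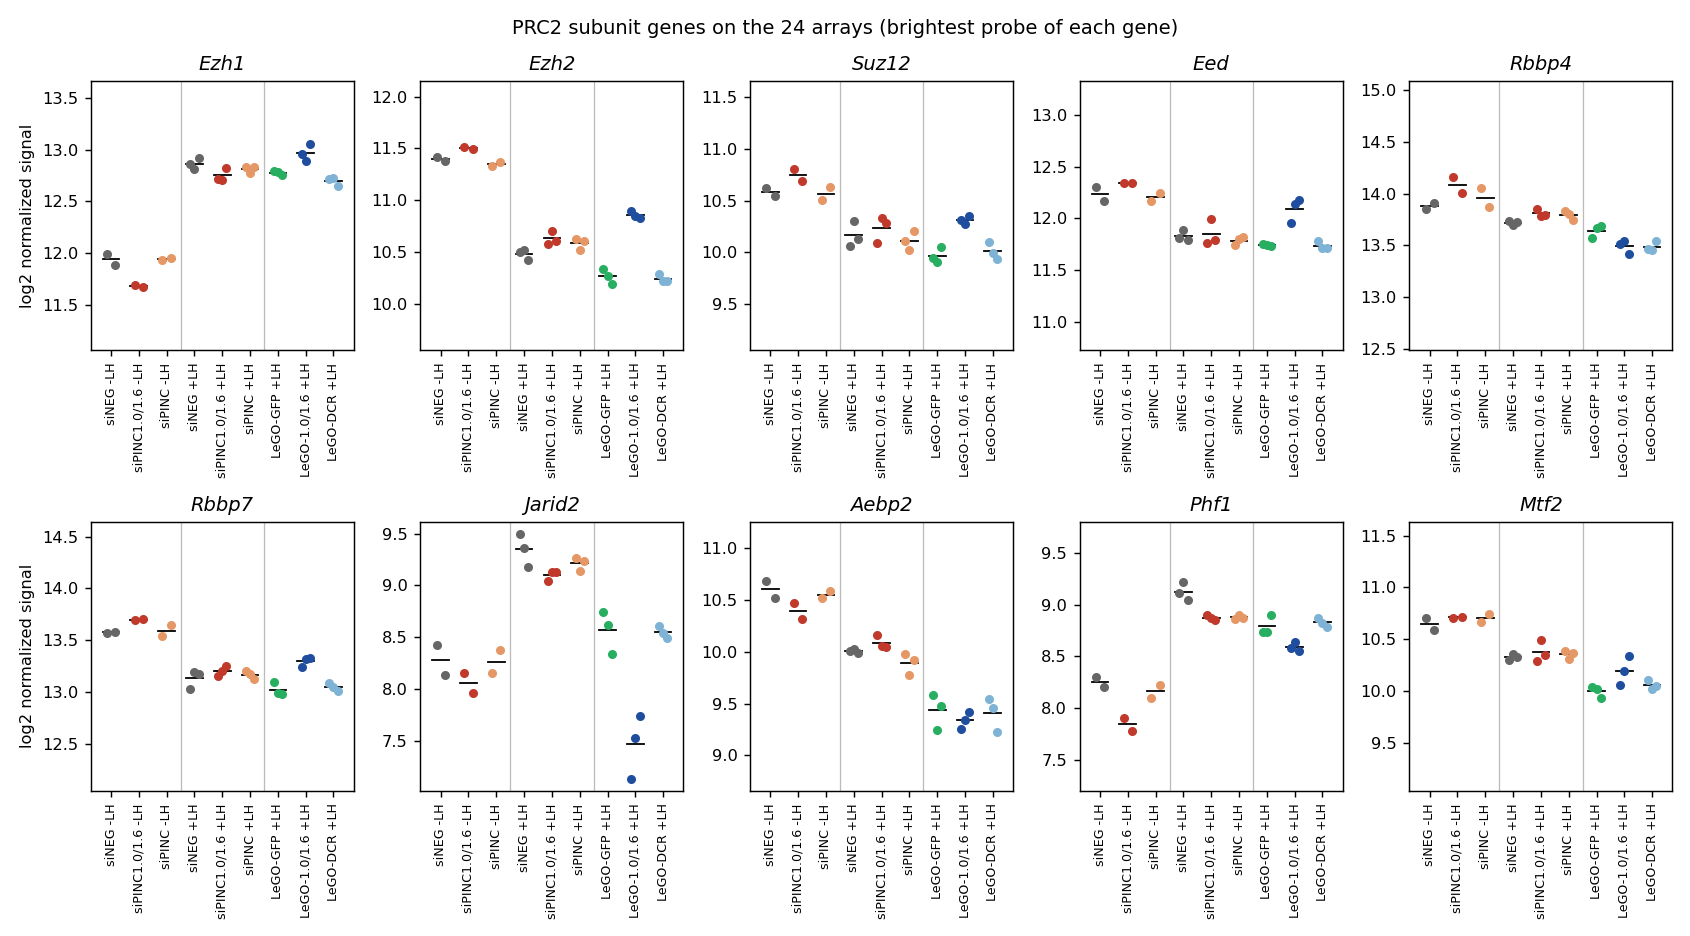
Log2 normalized signal (vertical axis, every panel spanning the same log2 range) of the 10 PRC2 subunit genes on each of the 24 arrays, by group (horizontal axis). Points are arrays, bars are group means and vertical lines separate −LH siRNA, +LH siRNA and lentivirus groups. *Ezh2* sits between 11.33 and 11.52 on the −LH arrays and at most at 10.89 elsewhere, while *Ezh1*, *Jarid2* and *Phf1* are higher in the +LH siRNA groups than in the −LH groups.

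The hormone differences ran the same way in the other siRNA groups. In siPINC1.0/1.6 cells all 10 genes passed (67.7% of genes as bright), with −0.87 for *Ezh2*, 1.07 for *Ezh1*, 1.04 for *Jarid2* and 1.03 for *Phf1*. In siPINC cells 9 passed (64.7% of genes as bright), with −0.76, 0.87, 0.95 and 0.71 for the same genes, and *Rbbp4* again did not (−0.17, adjusted p = 0.109 from limma). The difference between these hormone effects and that of siNEG cells passed for 0 of the 10 genes with siPINC1.0/1.6 (9.66% of genes as bright) and for 0 with siPINC (1.33%). Before adjustment a p under 0.05 was reached by 1 gene with siPINC1.0/1.6 (28.9% of genes as bright), *Aebp2* (0.29, standard error 0.114, adjusted p = 0.296), and by 0 with siPINC (15%). Within slide 1, where siNEG +LH replicate 1 was set against the siNEG −LH arrays, *Ezh2* differed by −0.90, *Ezh1* by 0.92, *Jarid2* by 1.22 and *Phf1* by 0.85. That +LH arm is 1 array, taken to vary like the other groups of the slide. With that spread 8 of the 9 genes passed, and *Mtf2* did not (−0.35, adjusted p = 0.055). Single −LH arrays decided some of the weaker calls. *Suz12* was not called in siNEG cells without siNEG −LH replicate 1 (−0.38, adjusted p = 0.0648 from limma) or in siPINC cells without siPINC −LH replicate 2 (−0.39, adjusted p = 0.0523), and *Rbbp4* (−0.20, adjusted p = 0.124) and *Aebp2* (−0.23, adjusted p = 0.137) were not in siPINC1.0/1.6 cells without siPINC1.0/1.6 −LH replicate 1. With the slide as a term over all 24 arrays, *Rbbp4*, *Aebp2* and *Mtf2* were not called in siPINC1.0/1.6 cells, with differences of −0.25, −0.31 and −0.38 (adjusted p = 0.141, 0.257 and 0.0549) beside −0.28, −0.30 and −0.33 without that term. In siPINC1.0/1.6 and siPINC cells each hormone state lay on a slide of its own, so slide and hormones cannot be told apart there except through siNEG.

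With overexpression of *mPINC*, 7 of the 9 genes called with hormones were also called, all but *Aebp2* and *Mtf2*. In LeGO-1.0/1.6 cells, *Ezh2*, *Suz12*, *Eed* and *Rbbp7* were higher than in LeGO-GFP cells and *Jarid2* was lower by more than any of them rose, with small differences at *Ezh1* (higher) and *Phf1* (lower). By limma 7 of the 10 genes passed, 5 higher and 2 lower, where 66.2% of the 12153 genes well above background on all arrays of the fit passed, 32.1% higher and 34.2% lower. The median was 0.20, beside −0.01 over all genes. Here the share of PRC2 genes called in either direction was near the background. Of the 6 fibroblast markers, 1 rose and 3 fell (mean log2 signal between 8.03 and 8.16 in LeGO-GFP and between 6.42 and 6.72 in LeGO-1.0/1.6 cells), 5 of the 6 epithelial markers fell and 0 rose (means between 13.62 and 13.66 and between 12.60 and 12.68), *Cd3e* of the immune list fell and *Adipoq* of the adipocyte list rose, and their part was not tested.

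*Ezh2* read 10.34, 10.26 and 10.19 in LeGO-GFP and 10.89, 10.85 and 10.83 in LeGO-1.0/1.6 cells, 1.51-fold higher (0.59, standard error 0.055, adjusted p = 0.000123 from limma). *Jarid2* read 8.75, 8.62 and 8.34 against 7.13, 7.52 and 7.74, 2.15-fold lower (−1.10, standard error 0.167, adjusted p = 0.00164). The groups did not overlap, and the 3 LeGO-1.0/1.6 arrays had less *Jarid2* signal than any of the other 21 arrays, −LH arrays included. The core subunits were closer to their controls. *Suz12* read 9.95, 9.90 and 10.05 against 10.32, 10.28 and 10.36 (0.35, adjusted p = 0.00443), and *Eed* 11.75, 11.74 and 11.73 against 11.96, 12.14 and 12.18 (0.35, adjusted p = 0.00535). *Rbbp7*, the gene of RbAp46, read 13.09, 12.99 and 12.98 against 13.24, 13.31 and 13.33 (0.27, adjusted p = 0.00674), and its second probe differed by 0.29. For *Suz12*, *Eed* and *Rbbp7* no LeGO-1.0/1.6 array reached down to a control array, and the share of all genes so separated is not given.

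*Mtf2* read 10.04, 10.02 and 9.93 against 10.06, 10.19 and 10.34 and did not pass (0.20, adjusted p = 0.107). Without LeGO-1.0/1.6 replicate 1, the differences were 0.58 for *Ezh2*, 0.35 for *Suz12*, 0.42 for *Eed*, 0.30 for *Rbbp7* and −0.94 for *Jarid2*, all 5 still called by limma, and *Mtf2* was called as well (0.27, adjusted p = 0.026).

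The calls at *Ezh1* and *Phf1* were weak. *Ezh1* read 12.79, 12.78 and 12.75 against 12.96, 12.89 and 13.06 (0.19, adjusted p = 0.0429 from limma), although its other probes also rose, by 0.23 and 0.35. *Phf1* read 8.74, 8.73 and 8.90 against 8.58, 8.63 and 8.55 (−0.20, adjusted p = 0.0451). Leaving out 1 array ended the *Ezh1* call for 8 of the 9 arrays (all but LeGO-1.0/1.6 replicate 2) and the *Phf1* call for 8 of the 9 (all but LeGO-GFP replicate 1). Without LeGO-GFP replicate 1, which leaves only arrays of slide 3, *Ezh1* no longer passed (0.20, adjusted p = 0.0629), while *Ezh2* (0.63) and *Jarid2* (−1.01) still did. Scaling each array to its 75th percentile left 3 calls, *Ezh2* (0.57), *Suz12* (0.32) and *Jarid2* (−1.06), with *Eed* at 0.30 (adjusted p = 0.0703) and *Rbbp7* at 0.21 (adjusted p = 0.213).

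The probes of *Rbbp4* did not move alike. The brightest *Rbbp4* probe differed by −0.15 (adjusted p = 0.108 from limma), but the second, at 6.75, 6.27 and 6.82 in LeGO-GFP and 4.82, 5.05 and 4.88 in LeGO-1.0/1.6 cells, fell by 1.70 (adjusted p = 0.000168). Over the 9 group means these *Rbbp4* probes had r = 0.527. The *Aebp2* probes, which are to different transcripts, differed by −0.10 (adjusted p = 0.615) and 0.31 (adjusted p = 0.0303), with r = 0.934 over the group means. The second *Mtf2* probe was dim on all 24 arrays, so it bears on nothing here. Which transcripts the *Rbbp4* probes share was not tested. The probe pairs of *Ezh1*, *Rbbp7* and *Phf1* had r between 0.966 and 0.992.

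None of these genes passed with the mutant that lacks the conserved regions. LeGO-DCR against LeGO-GFP gave 0 calls among the 10 genes by limma (0.0165% of genes as bright), with *Rbbp4* alone under 0.05 before adjustment (−0.16, adjusted p = 1, 3.99% of genes as bright). The differences ran from −0.16 to 0.06, and *Ezh2* read 10.28, 10.21 and 10.22, within the range of its LeGO-GFP arrays. The intervals were wide for *Jarid2*, −0.41 to 0.37, and for *Ezh2* they were −0.15 to 0.11. Set against LeGO-DCR, LeGO-1.0/1.6 gave 7 calls, 5 higher and 2 lower (66.4% of genes as bright, 32.7% higher and 33.6% lower), with 0.62 for *Ezh2* and −1.08 for *Jarid2*. *Phf1* was not called without LeGO-1.0/1.6 replicate 3, LeGO-DCR replicate 1 or LeGO-DCR replicate 2 (−0.24 to −0.22). Both contrasts use the same LeGO-1.0/1.6 arrays.

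**Figure D2:**
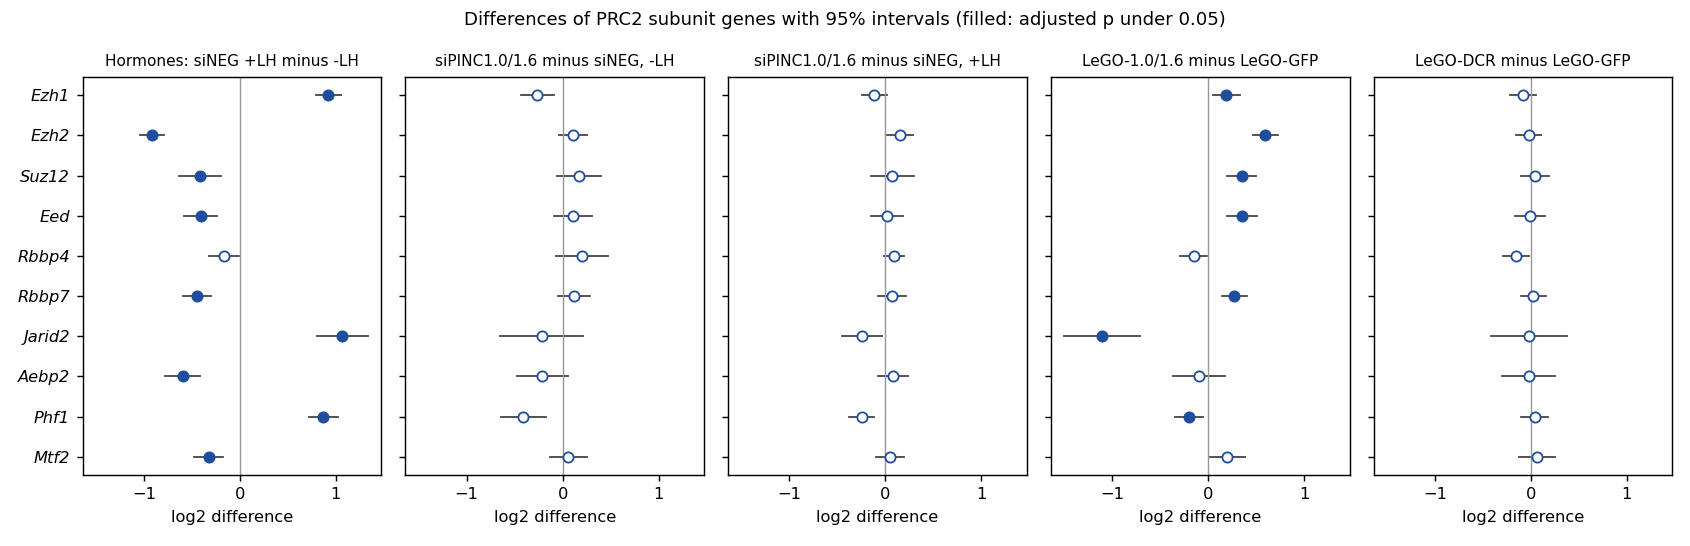
Log2 differences (horizontal axis) of the 10 PRC2 subunit genes in 5 comparisons, with 95% intervals from limma. Filled points passed an adjusted p of 0.05. Hormones gave 9 filled points and LeGO-1.0/1.6 gave 7, and the siRNA comparisons and LeGO-DCR gave 0.

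The hormone and overexpression differences, which share no array, can be set side by side. Of the 7 genes called in both, 6 had opposite signs (*Ezh2*, *Suz12*, *Eed*, *Rbbp7*, *Jarid2* and *Phf1*) and *Ezh1* rose in both. Over all genes called in both, 81% of 6053 had opposite signs, so the PRC2 genes were not apart from the rest in this. *Ezh1* set itself off from *Ezh2* in that LeGO-1.0/1.6 moved both the same way. Relative to siNEG −LH, the log2 ratio of *Ezh2* to *Ezh1* was −1.97 ± 0.056 (SD, n = 3) in LeGO-GFP, −1.91 ± 0.048 in LeGO-DCR and −1.57 ± 0.10 in LeGO-1.0/1.6 cells. The LeGO-1.0/1.6 ratio thus lay far nearer to its control than to the −LH cells, whose arrays ran from −0.06 to 0.37. Those −LH cells are siRNA cells on another slide, without a lentivirus −LH group, so this distance was not tested.

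**Figure D3:**
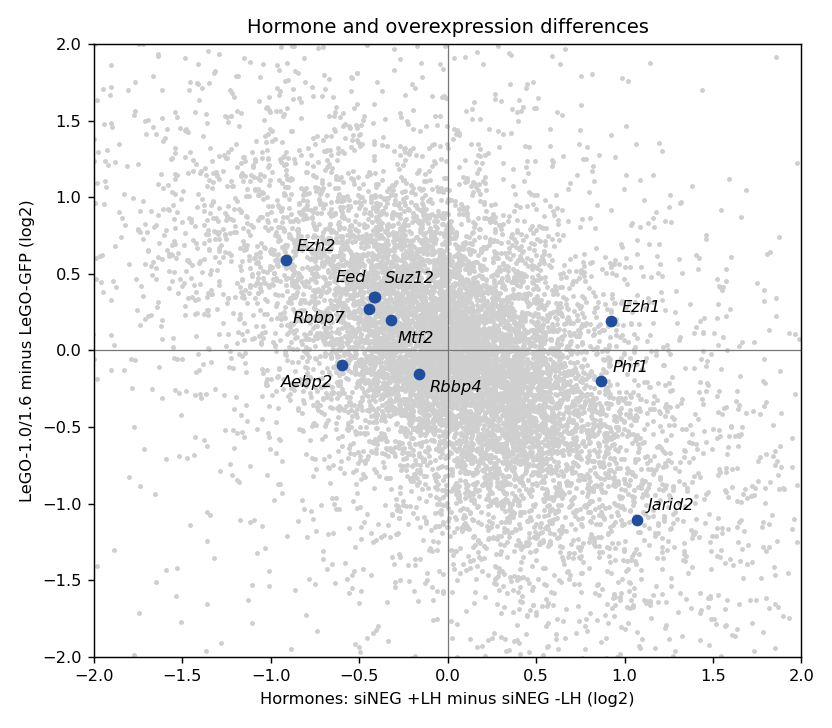
Log2 difference of LeGO-1.0/1.6 from LeGO-GFP cells (vertical axis) against that between siNEG +LH and siNEG −LH cells (horizontal axis) for the 10 PRC2 subunit genes (blue, named) and for all 11176 genes well above background on all 24 arrays (grey, 877 of them outside the axes). *Ezh2* is at −0.92 and 0.59, *Jarid2* at 1.07 and −1.10, and *Ezh1* at 0.92 and 0.19.

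**Figure D4:**
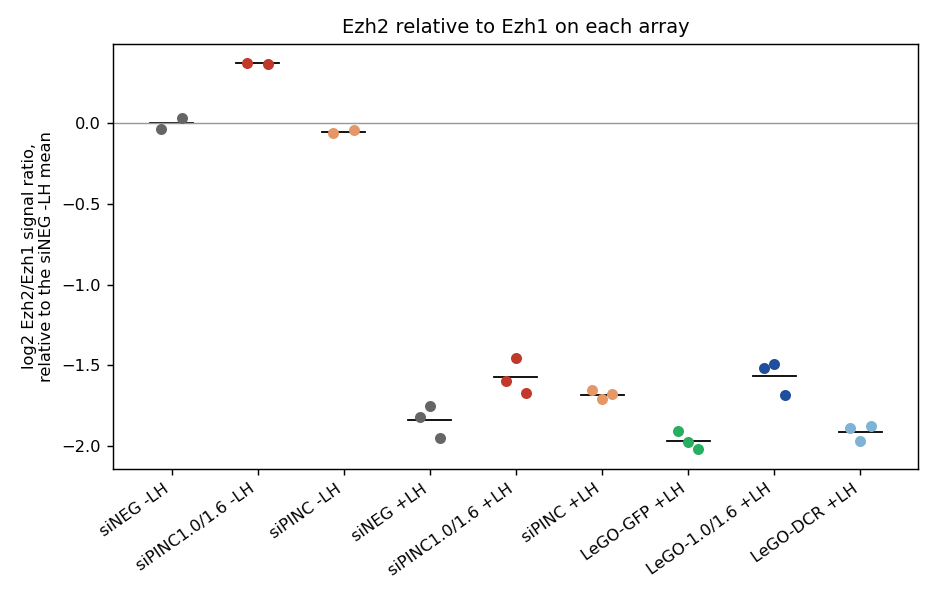
Log2 ratio of *Ezh2* to *Ezh1* signal on each array, relative to the siNEG −LH mean (vertical axis), by group (horizontal axis), with bars at group means. The ratio falls to between −1.75 and −1.95 on siNEG +LH arrays, and both siPINC1.0/1.6 −LH arrays are at 0.37.

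With knockdown of *mPINC* none of the genes passed. By limma 0 of the 10 genes were called with siPINC1.0/1.6 in −LH cells (7.71% of genes as bright), 0 with siPINC in −LH cells (0%), 0 with siPINC1.0/1.6 in +LH cells (10.4%) and 0 with siPINC in +LH cells (2.22%). Before adjustment, a p under 0.05 was reached by 2 genes (41% of genes as bright), 0 (17.2%), 3 (31.7%) and 1 (22.7%) in the same order. The siRNA groups against each other also gave 0 calls, in −LH (0.041% of genes as bright) and in +LH cells (2.87%), with 3 genes (28.9%) and 1 gene (20.6%) under 0.05 before adjustment. The background shares rest on few arrays: of all probes, 2.96% were called with siPINC1.0/1.6 in −LH cells and 0 to 0.318% without any 1 of the 6 arrays, and 0.681% with siPINC in +LH cells and 0.119 to 0.383% without any 1 of the 9. The intervals reach a log2 difference of 0.65 for *Jarid2* in −LH cells with siPINC1.0/1.6 and 0.45 in +LH cells.

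*Phf1* had the largest of these differences. In −LH cells it read 8.30 and 8.21 with siNEG and 7.91 and 7.78 with siPINC1.0/1.6 (−0.41, 95% interval −0.65 to −0.18, adjusted p = 0.0997 from limma). In +LH cells it read 9.11, 9.22 and 9.04 with siNEG, 8.90, 8.87 and 8.86 with siPINC1.0/1.6 (−0.25, adjusted p = 0.0621) and 8.86, 8.90 and 8.87 with siPINC (−0.25, adjusted p = 0.151). No knockdown array reached the lowest siNEG array in these 3 comparisons, and the share of all genes so separated is not given. With siPINC in −LH cells the groups overlapped (−0.09, adjusted p = 0.768). The *Phf1* calls depended on the fit: 5 alternatives called it with siPINC1.0/1.6 in −LH cells, 5 in +LH cells and 1 with siPINC in +LH cells.

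*Ezh1* read 11.69 and 11.67 in siPINC1.0/1.6 −LH cells, below both siNEG arrays (−0.26, adjusted p = 0.127 from limma), and *Ezh2* 11.52 and 11.49, above both (0.11, adjusted p = 0.397). Their log2 ratio was 0.37 on both siPINC1.0/1.6 arrays and −0.06 and −0.04 on the siPINC arrays. In +LH cells *Ezh2* read 10.58, 10.71 and 10.61 with siPINC1.0/1.6 (0.15, 95% interval 0.02 to 0.28, adjusted p = 0.272). *Jarid2* read 9.04, 9.13 and 9.13 there, below the siNEG arrays (−0.24, adjusted p = 0.244). *Rbbp7* differed from siNEG by 0.12 in −LH and 0.07 in +LH siPINC1.0/1.6 cells (adjusted p = 0.422 and 0.68).

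The signs of these uncalled differences are given as counts only. With siPINC1.0/1.6, 9 of the 10 genes (not *Aebp2*) differed from siNEG in the same direction in −LH and in +LH cells, as did 67.6% of all genes as bright; the contrasts share no array. The hormone difference of siPINC cells, which also shares no array with them, had the opposite sign at 9 of 10 genes in −LH and 10 of 10 in +LH cells, against 70.7% and 71.7% of genes. LeGO-1.0/1.6 had the same sign as siPINC1.0/1.6 in +LH cells at 7 of 10 genes (not *Ezh1*, *Rbbp4* or *Aebp2*) and 62.8% of all.

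Across the 9 groups *Ezh2* ranked siPINC1.0/1.6, siNEG and siPINC in −LH cells, then LeGO-1.0/1.6, siPINC1.0/1.6 +LH, siPINC +LH, siNEG +LH, LeGO-GFP and LeGO-DCR. Neighbours whose arrays overlapped in this order were siPINC1.0/1.6 with siPINC in +LH cells and LeGO-GFP with LeGO-DCR. *Jarid2* ran from siNEG +LH (9.35 ± 0.16, SD, n = 3) to LeGO-1.0/1.6 (7.46 ± 0.31), with the LeGO-GFP mean at 8.57 ± 0.21, below the 3 +LH siRNA groups. Over the 9 group means *Ezh2* had r = 0.995 with *Rbbp7* and 0.987 with *Suz12*, and *Rbbp7* had r = −0.926 with *Phf1*. The genes outside the complex most like *Ezh2*, of 11175 compared, were *Idi1* (r = 0.998), *Etaa1* (0.996) and *Polh* (0.996), those most like *Rbbp7* were *Eif4e* (0.999), *Chchd4* (0.997) and *Gtf3a* (0.997), and those most like *Jarid2* were *Ifi30*, *Zfp521* and *2810001G20Rik* (0.997 each). These r describe 9 means dominated by the hormone difference and carry no p.

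Proliferation genes moved along the same lines. Of 28 genes for replication and mitosis, 27 fell with hormones in siNEG cells (median −2.48), with differences of −2.91 at *Top2a*, a topoisomerase gene, and −2.29 at *Mki67*, the gene of the Ki-67 antigen. With LeGO-1.0/1.6, 23 rose and 1 (*E2f2*) fell, with a median of 1.15. Over the 9 group means the mean of the 28 genes had r = 0.963 with *Ezh2*, 0.967 with *Rbbp7*, −0.955 with *Phf1* and −0.636 with *Jarid2*. With siPINC1.0/1.6 in +LH cells 25 of the 28 rose (median 1.03) while 0 of the 10 PRC2 genes passed, and 0 of the 28 were called with LeGO-DCR. Their part in the PRC2 differences was not tested.

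**Figure D5:**
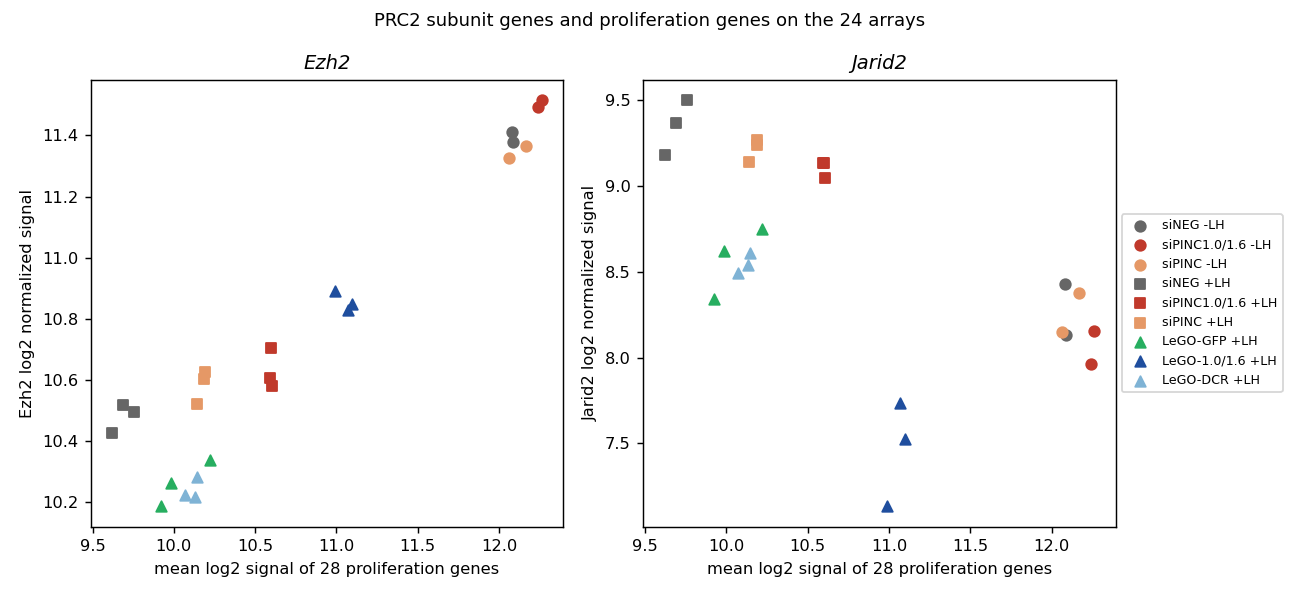
Log2 normalized signal of *Ezh2* (left) and *Jarid2* (right) on each of the 24 arrays (vertical axes) against the mean log2 signal of 28 proliferation genes (horizontal axes); circles are −LH siRNA, squares +LH siRNA and triangles lentivirus arrays. *Ezh2* is high on the −LH arrays, at the right, and *Jarid2* is lowest on the 3 LeGO-1.0/1.6 arrays.

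Genes that act with or against PRC2 were counted by lists, to be read beside the 64.2% of bright genes called with hormones and the 66.2% called with LeGO-1.0/1.6. Of 4 further accessory or regulator genes, *Phf19* (another Polycomb-like gene) and *Epop* fell with hormones in siNEG cells (−1.99 and −1.63), and 0 passed with LeGO-1.0/1.6. In each fit 2 of these 4 were well above background on every array. Of the 6 erasers of the Polycomb marks, 4 rose with hormones and 0 fell, with 0.86 for the H3K27 demethylase gene *Kdm6b* and 0.58 for *Kdm6a*, and with LeGO-1.0/1.6 4 fell (*Kdm6b*, −0.73, and *Kdm6a*, −0.56, among them) and 1 rose (*Bap1*, 0.46). The 19 PRC1 genes, whose complex ubiquitinates histone H2A, split 5 higher to 5 lower with hormones and 8 to 5 with LeGO-1.0/1.6, where *Bmi1* was at −0.78. The 22 genes of other complexes that hold RbAp46 or RbAp48 gave 4 higher and 10 lower with hormones and 11 higher and 7 lower with LeGO-1.0/1.6; the histone chaperone genes *Chaf1a* and *Chaf1b* differed by −2.68 and −3.07 and then by 1.40 and 1.28. *Hox* genes, classic targets of PRC2, gave 5 higher and 7 lower of 39 with hormones and 7 higher and 5 lower with LeGO-1.0/1.6, with medians of 0.01 and −0.04. Only 20 and 21 of the 39 were well above background on every array of these fits. The *Hox* counts and medians thus include dim genes, unlike the shares of bright genes. The 8 measured genes of trithorax complexes, which oppose Polycomb silencing, gave 1 higher and 4 lower with hormones and 4 higher and 1 lower with LeGO-1.0/1.6, the 9 genes for H3K9 and DNA methylation 2 higher and 5 lower and then 6 higher and 2 lower, and the 11 pocket protein and CDK inhibitor genes 4 to 4 and 3 to 3. Of 8 milk genes, 3 rose with hormones and 5 fell with LeGO-1.0/1.6. In each fit 2 of the 8 were well above background on every array. The milk gene *Ltf* was at 1.98 with hormones and at −4.31 with LeGO-1.0/1.6. With siPINC1.0/1.6 in +LH cells, where 10.4% of genes as bright passed, 0 eraser, 1 PRC1 gene (*Cbx2*, 0.39) and 0 *Hox* genes rose, and none of these 3 lists had a gene that fell. Of the other lists, 2 genes of other RbAp46 or RbAp48 complexes, 2 for H3K9 and DNA methylation and 1 pocket protein or CDK inhibitor gene rose. In the trithorax list 1 fell, and in the milk list 1 rose and 1 fell.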

How the data were processed

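RNA of HC11 cultures was hybridised, with Cy3 label, to 24 Agilent 1-colour arrays, from biological duplicates (−LH) or triplicates (+LH). What the authors deposited is intensity data from Agilent Feature Extraction 11.0.1.1 (processed signals with the background of each array removed and no normalization across arrays). They also deposited log2 values after quantile normalization. The array design names the build mm9:NCBI37:Jul2007. Here the log2 processed signals of 59305 spots that are not controls were quantile normalized over the 24 arrays, outlier spots (146 to 644 per array) were left out, and repeated spots were averaged into 55681 probes, dim ones included. Symbols came from RefSeq accessions (26582 probes, 20145 symbols), and the brightest probe stands for a gene. The *mPINC* probe was named from the study's supplementary tables.

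Tests used limma (version 3.58.1, R 4.3.3; lmFit and eBayes), fitted separately to the −LH siRNA, +LH siRNA, lentivirus and, for hormones and interactions, all siRNA arrays, with Benjamini-Hochberg adjustment over all probes and a call at an adjusted p under 0.05. "Genes as bright" are genes whose brightest probe was well above background on every array of the fit. The 10 members are named with every probe. Of other lists, up to 3 called genes a direction with the largest difference are named. *Mki67*, and *Top2a* with hormones, were named after their values were seen. The members and lists were chosen with earlier results of these data known. Alternatives were other normalizations and background correction, a filter on dim probes, other fits, the methods' t-test, the deposited log2 values, the mean of all probes of a gene and leaving out each array. The comparison within slide 1 was added after seeing the data. On simulated data with 200 changed probes, no call of a changed probe had the wrong sign. Known shifts were added to independent noise there, so this checks the direction of the code and not the calls. The number of arrays limits the precision. Promoters are RefSeq windows of GRCm38.p6. Figures used Python 3.11.15 with matplotlib 3.10.9. Probe and protein sequences were not used here.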

Additional observations from a re-analysis of the deposited data

Results flagged for a closer look

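The effect of siPINC1.0/1.6 on proliferation genes differed between −LH and +LH cells: in a limma interaction test over the 15 siRNA arrays, 24 of the 28 genes passed an adjusted p of 0.05, with a median of 0.84 on the log2 scale, and none of the 10 PRC2 genes passed. Of genes as bright, 9.66% passed. In the same test 4 of 6 fibroblast markers were called higher, with a median of 1.00. Against siNEG, siPINC1.0/1.6 lowered 3 of these 6 markers and raised 1 in −LH cells (median −1.11). In +LH cells 1 rose and 1 fell (median 0.055). The number of proliferation genes called in the interaction test was between 20 and 23 when 1 array was left out. No cause was tested.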

How the results depend on the processing

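The 42 called member differences of the hormone and LeGO-1.0/1.6 comparisons kept their sign in all 443 alternatives and all 546 repeats without 1 array. They were no longer called in 38 and 23 of these, of which *Ezh1* and *Phf1* with LeGO-1.0/1.6 made up 19 and 19. Scaling to the 75th percentile, which moved the median of all genes with hormones from 0.02 to 0.11 in siNEG and to 0.13 in siPINC cells, but with LeGO-1.0/1.6 against LeGO-GFP only from −0.007 to −0.045, left 3 calls in LeGO-1.0/1.6 against LeGO-GFP and 3 against LeGO-DCR. The methods' t-test left 5 with hormones in siPINC1.0/1.6 cells. Each of these was the only alternative to move its count by over 1.5 times.

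Knockdown counts of 0 moved most. With siPINC1.0/1.6 against siNEG in −LH cells, normexp and the filter on dim probes gave 1 call, and the trended and robust prior and the fits of all 24 arrays, with and without the slide, gave 2. Against siPINC in −LH cells, normexp gave 1 and both 24-array fits 2. In +LH cells against siNEG, siPINC1.0/1.6 had 1 call under normalization within each experiment, the filter, the trended and robust prior, both 24-array fits and the mean of all probes, and siPINC had 1 in the fit of all 24 arrays without the slide. The percent of all probes called with siPINC1.0/1.6 in −LH cells ran from 0 to 17.7 around 2.96. The causes were not tested. LeGO-DCR and the interactions gave 0 calls throughout.

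Signs turned where differences were near 0 or probes disagreed. By the mean of all probes of a gene, *Rbbp4* was at −0.76 and *Aebp2* at 0.18 in LeGO-1.0/1.6 against LeGO-DCR, *Aebp2* at 0.11 against LeGO-GFP, and *Rbbp4* at 0.11 with hormones in siNEG cells, 0.011 in siPINC cells and −0.11 with siPINC in +LH cells. In +LH cells *Eed* with siPINC1.0/1.6 was at −0.008 under normexp and −0.006 in the deposited log2 values, *Ezh1* with siPINC at 0.013 in both, *Mtf2* with siPINC at −0.001 under the 75th percentile, *Rbbp7* with siPINC at −0.021 with the slide as a term, and *Rbbp4* in LeGO-1.0/1.6 against LeGO-DCR at −0.010 under normexp and −0.011 in the deposited values. Without 1 array, *Rbbp7* with siPINC in +LH cells ran from −0.021 to 0.066, *Suz12* from −0.106 to 0.017, *Eed* with siPINC1.0/1.6 from −0.055 to 0.061, *Mtf2* from −0.010 to 0.092 and *Rbbp4* in LeGO-1.0/1.6 against LeGO-DCR from −0.024 to 0.043.

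Members called without 1 array were 5 to 6 in LeGO-1.0/1.6 against LeGO-GFP, 6 to 7 against LeGO-DCR, 8 to 9, 8 to 10 and 9 with hormones, and 0 elsewhere. In the +LH fits same-numbered replicates did not as a rule deviate together (r between −0.458 and 0.246 over 21102 probes, and 8 of 36 best matches by number). In the −LH fit every r was positive but small, between 0.055 and 0.141, and best matches were not counted. The numbers were not taken as pairs. A block for the replicate number left 5 and 6 calls in the LeGO-1.0/1.6 comparisons, 9, 10 and 9 with hormones and 0 elsewhere. With n = 2 or 3 arrays a group, small differences were not detectable.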
